A study of Mus musculus with 3 samples.

Results

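Ion channel genes were described in the proximal incisor of DKO mice. The members were the protein-coding genes of the deposited table whose symbols belong to the voltage-gated potassium, sodium and calcium channel families, the other potassium channels, the TRPC, TRPM and TRPV channels, Trpa1, the polycystins, the HCN, CLC and Piezo families, and the Orai and Stim genes of store-operated calcium entry. Among the listed genes, symbol and gene type decided membership, and the rule itself used no measured value. The rule was chosen with earlier results of these data known. What filter decided which genes were listed is not given, so measured signal may have entered there. They numbered 140 of the 19381 genes listed, of which 15252 were protein coding. The GENCODE M21 annotation holds 179 protein-coding genes with such symbols, and the 39 that are not among the 140, Trpm8, Trpv1 and Scn11a included, were not analysed here. Trpc4ap carries a matching symbol but encodes an adaptor that binds a TRPC channel, and it is given apart from the channels.

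The mice carried Gli1-CreER, a Cre recombinase made in Gli1-expressing cells and active after tamoxifen, together with floxed alleles of both Arid1a and Arid1b, a pair of genes for interchangeable DNA-binding subunits of a BAF-type chromatin remodeler. They were 1 month old, and the incisor base, labelled as mesenchyme, was taken 4 days after tamoxifen given at 1.5 mg per 10 g of weight. The labels gave 3 libraries, DKO replicates 1, 2 and 3, and no other group, so no genotype was compared with another. Cells outside the Gli1 lineage keep both genes, so the tissue is a mixture of deleted and undeleted cells. Nothing in the labels says that the libraries came from separate animals, so every SD and p below measures only how far these libraries lie apart, which could be technical. Values are the deposited normalized counts, called units here, scaled to a common upper quartile, and are listed in the order of replicates 1, 2 and 3.

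Ion channels let ions cross membranes along their gradients, and the families differ in what opens them: voltage, calcium, stretch, temperature, ligands or the emptying of calcium stores. Auxiliary subunits bind the pore-forming ones and change their surface level and gating. In teeth, channels are best known for carrying calcium to mineralizing cells and for sensing cold and pressure in odontoblasts and nerve endings.

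The promoters of 3 members that the results turn on are printed below. Each is the stretch just upstream of the RefSeq start (GRCm38.p6, written on the gene's strand, 250 bases) with every CG dinucleotide in capitals. Trpm7 was the most abundant member, Kcnj15 the next per exon length, and Kcnf1 the member with the widest spread between libraries.
Trpm7: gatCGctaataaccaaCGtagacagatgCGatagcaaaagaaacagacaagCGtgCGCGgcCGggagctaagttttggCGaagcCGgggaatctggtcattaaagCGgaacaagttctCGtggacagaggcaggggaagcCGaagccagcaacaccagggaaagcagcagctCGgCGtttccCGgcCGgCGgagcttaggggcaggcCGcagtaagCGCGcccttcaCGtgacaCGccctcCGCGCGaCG
Kcnj15: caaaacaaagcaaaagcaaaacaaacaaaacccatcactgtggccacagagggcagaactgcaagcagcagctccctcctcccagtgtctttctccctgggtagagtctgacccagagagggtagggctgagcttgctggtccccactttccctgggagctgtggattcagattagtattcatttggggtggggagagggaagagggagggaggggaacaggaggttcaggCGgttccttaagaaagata
Kcnf1: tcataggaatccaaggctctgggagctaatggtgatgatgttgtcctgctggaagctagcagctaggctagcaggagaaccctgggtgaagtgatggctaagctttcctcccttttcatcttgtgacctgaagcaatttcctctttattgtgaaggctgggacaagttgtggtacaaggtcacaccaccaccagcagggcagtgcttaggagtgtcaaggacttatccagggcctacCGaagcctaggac
They lie at chr2:126876262-126876511 (minus strand), chr16:95257308-95257557 (plus strand) and chr12:17176889-17177138 (minus strand). The Trpm7 stretch holds 26 CG dinucleotides, the Kcnj15 stretch 1 and the Kcnf1 stretch 1. Of the 32851 RefSeq promoter entries, 9.59% hold at least 26 in this window and 18.8% hold at most 1, and the median is 6. Among the 39 of 46 members at a mean of at least 10 units that have an entry, the count ran from 1 to 36 with a median of 14, and Scn2b was the other gene with at most 1 beside Kcnj15 and Kcnf1. Only the first entry of each member was used, though some have several, such as Kcnk2 with 4 and Cacna1c with 3. The figures over all entries use every entry of every gene, at any level.

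The libraries held the genes of tooth mesenchyme together with those of other cells. All 10 dental mesenchyme markers had a mean of at least 10 units, as did 9 of 13 dental epithelium, 10 of 10 endothelial, 10 of 10 macrophage and 8 of 10 mural markers. Of the markers found, 4 of 10 glial, 2 of 7 neuronal and 0 of 10 skeletal muscle genes reached that level. Arid1a stood at 136, 129.8 and 133 units and Arid1b at 50.5, 50.7 and 50.8 units, gene-level values that include exons outside the floxed part and so do not check the deletion. The libraries also differed from one another in these lists. All 10 interferon-stimulated genes were highest in replicate 1, with summed levels of 1426, 296 and 309 units. The odontoblast markers summed to 16301, 6485 and 18580 units, and 7 of 9 were lowest in replicate 2. Dental epithelium markers summed to 884, 1297 and 1061 units, endothelial markers to 431, 428 and 566 units and macrophage markers to 995, 1296 and 1376 units. In bulk tissue, fewer cells of a type and less RNA per cell cannot be told apart. What part these differences have in the values below was not tested.

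Most channel genes were expressed at low levels. A mean of at least 10 units over the 3 libraries was reached by 46 of 140 members (32.9%), against 66.5% of all protein-coding genes of the table, while 62 members had a mean from 1 to under 10 and 32 (22.9%) had a mean under 1, against 11.8% of all protein-coding genes. The median member had a mean of 3.86 units and the median protein-coding gene 21.5 units. Together the members took 0.343%, 0.364% and 0.371% of the summed values of the 3 libraries (0.359 ± 0.0145%, SD, n = 3). The 10 members with the highest means held 59.8% of the members' sum, and Trpm7 alone held 19.1%, 19.4% and 18.1% of it. Members are long genes, with a median span of 54.2 kb against 24.6 kb for protein-coding genes, and a median exon length of 5.35 kb against 4.39 kb, and shares of summed values and counts at 10 units move with length. Divided by exon kilobases, 11 of 140 members had a mean of at least 10 (7.86%), against 29.2% of protein-coding genes, and the median member stood at 0.684 and the median protein-coding gene at 4.87 units per kilobase. Trpm7 then held 13.7% of the members' sum and the top 10 members 50.9%. Of the 46 members, 15 share exon bases with a gene on the opposite strand.

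**Figure D1:**
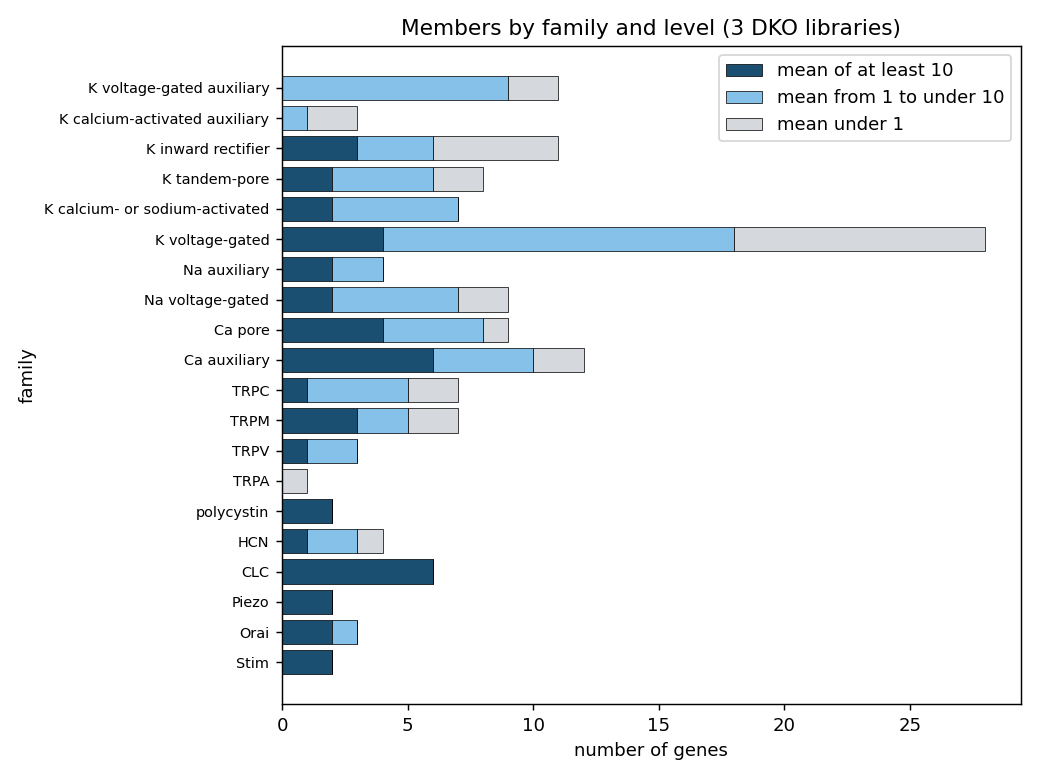
Number of members in each family (horizontal bars, counts of genes) by mean level over the 3 DKO libraries: at least 10 units (dark), 1 to under 10 units (light blue) and under 1 unit (grey). All 6 CLC, both Piezo, both polycystin and both Stim genes lie in the dark class, against 4 of 28 voltage-gated potassium pore genes and 0 of 11 of their auxiliary subunits.

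Families differed in how many of their members reached 10 units, values not divided by length. All listed members reached a mean of 10 units in the CLC family (6 of 6), the Piezo family (2 of 2), the polycystins (2 of 2) and the Stim genes (2 of 2). Of the potassium channel pore genes 11 of 54 did, and of the 14 potassium channel auxiliary genes none did. Calcium channels stood between, with 4 of 9 pore genes and 6 of 12 auxiliary genes, while 2 of 9 sodium channel pore genes and 2 of 4 sodium auxiliary genes reached that level. The TRPM genes held 21.6% of the members' summed means, the polycystins 11.7%, the calcium pore genes 10.5% and the Piezo genes 9.0%. The 28 voltage-gated potassium pore genes held 3.59%. Per kilobase of exon the counts were lower. The 11 members at 10 units per kilobase or more came 1 each from the CLC (Clcn4), Piezo (Piezo2), polycystin (Pkd2), Orai (Orai3), TRPM (Trpm7), TRPV (Trpv4), calcium pore (Cacna1g), calcium auxiliary (Cacng7), inward rectifier (Kcnj15) and tandem-pore (Kcnk2) families, with Trpc4ap, and neither Stim gene was among them. Of the members' summed values per kilobase the TRPM genes held 14.9%, the inward rectifiers 10.5%, the calcium auxiliary genes 9.25%, the polycystins 7.83%, the CLC genes 7.60% and the Piezo genes 5.29%.

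Among the TRP channels, Trpm7 (chromosome 2, 126791565 to 126876230, mm10) led. It encodes a magnesium- and calcium-permeable channel fused to a protein kinase, and stood at 646, 677 and 649 units (657 ± 17.4, SD, n = 3). By values not divided by length it had rank 98 of all listed genes and percentile 99.4 of the protein-coding genes. Trpm7 has 11.3 kb of exon, against a median of 4.39 kb for protein-coding genes. Its coefficient of variation was 2.64%, among the smallest of the members, so its level was alike in the 3 libraries. Per kilobase of exon it was at 57.1, 59.9 and 57.4 units, with no overlap with any other member. Trpm3 (chromosome 19, 22139046 to 22995410), a steroid- and heat-activated channel of sensory neurons, was at 44.3, 68.95 and 84.3 units (65.9 ± 20.2). Trpm4, a calcium-activated channel for monovalent cations, was at 15.6, 18.3 and 17.8 units. Trpm2, a channel opened by oxidative stress, was at 5.80, 7.12 and 6.20 units. Trpm1 averaged 3.78 units, and Trpm6, the close relative of Trpm7 with its own kinase, 0.945 units.

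Of the TRPV genes, Trpv4, an osmotically and mechanically activated calcium channel, was at 44.3, 35.0 and 49.0 units (42.8 ± 7.14), lowest in replicate 2. Trpv2 was at 2.80, 4.09 and 4.98 units and Trpv6, an epithelial calcium channel, at 2.45, 1.79 and 0.652 units. Of the 7 TRPC genes, Trpc4 alone reached a mean of 10 units, at 13.1, 16.0 and 18.96 units. Trpc5, known as a cold sensor of mouse odontoblasts, was at 5.77, 7.36 and 6.99 units (6.71 ± 0.834), a low level found in every library. Trpc1 was at 4.11, 3.96 and 4.91 units. Trpa1, a sensor of irritants in nociceptive nerves, was at 0.641, 0.714 and 1.44 units. The adaptor Trpc4ap stood at 111, 116 and 121 units.

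The polycystins form a channel complex of primary cilia, with Pkd1 as the large receptor-like partner and Pkd2 as the calcium-permeable channel. Pkd1 (chromosome 17, 24549834 to 24596508) was at 145, 167 and 183 units (165 ± 18.9) and Pkd2 (chromosome 5, 104459450 to 104505819) at 225, 249.8 and 251 units (242 ± 14.9). Both were lowest in replicate 1. Per kilobase of exon Pkd1 was at 8.33, 9.56 and 10.5 units and Pkd2 at 22.1, 24.6 and 24.7 units, and the ranges did not overlap. The within-library difference, Pkd1 minus Pkd2, was -1.33 ± 0.09 on the log2 scale of values per kilobase, negative in 3 of 3 libraries.

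The Piezo channels open on membrane stretch, Piezo1 being known for sensing flow in vessels and Piezo2 for touch and proprioception. Piezo1 (chromosome 8, 122481698 to 122551329) was at 89.4, 89.0 and 119 units (99.0 ± 17.0) and Piezo2 (chromosome 18, 63010213 to 63387183) at 242, 188 and 213 units (215 ± 26.7). Piezo2 was highest in replicate 1 and lowest in replicate 2, and Piezo1 was highest in replicate 3. Replicate 3 was also highest for 9 of 10 endothelial, 7 of 10 macrophage and 7 of 10 glial markers. It was highest for 5 of 7 neuronal, 5 of 9 odontoblast, 5 of 10 mural and 5 of 10 skeletal muscle markers. The counts were 4 of 10 for dental mesenchyme, 3 of 13 for dental epithelium and 3 of 8 each for osteoclast and erythroid markers. Of the interferon-stimulated genes 0 of 10 were highest there, and of all genes at a mean of at least 10 units 34.6%. The part of these lists in the Piezo1 value was not tested. Per kilobase of exon Piezo1 was at 9.0, 8.95 and 11.9 units and Piezo2 at 14.1, 11.0 and 12.4 units, so the ranges overlapped once values were divided by the union of annotated exons. The within-library difference, Piezo1 minus Piezo2, was -0.65, -0.29 and -0.06 per kilobase (mean -0.33 ± 0.30, log2 scale) and -0.18 without replicate 1. In the annotation 24.6% of the Piezo1 exon bases lie opposite exons of Ctu2, which was listed at 7.46, 5.91 and 7.48 units. The strand setting of the counting is not given in the sources used here, so reads from the shared stretch cannot be told apart.

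Store-operated calcium entry links the Stim proteins, calcium sensors of the endoplasmic reticulum, to the Orai pores of the plasma membrane. Stim1 was at 74.0, 64.5 and 75.9 units (71.5 ± 6.12) and Stim2 at 42.5, 45.9 and 43.6 units (44.0 ± 1.74). Per kilobase the order turned round: Stim1 was at 7.14, 6.22 and 7.32 units and Stim2 at 8.27, 8.94 and 8.49 units (log2 difference, Stim1 minus Stim2, -0.32 ± 0.18 per kilobase, against 0.70 undivided). The lengths used were unions of all annotated exons, 10371 bases for Stim1 and 5133 bases for Stim2. Whether the order holds for the transcripts made was not tested. Among the pores Orai1, the subunit best known from immune cells and from enamel formation, was at 5.59, 6.84 and 7.50 units. Orai2 was at 37.6, 38.2 and 37.9 units and Orai3 at 29.5, 30.3 and 32.6 units. Per kilobase Orai1 averaged 2.90 ± 0.422 units, Orai2 6.24 ± 0.0523 units and Orai3 14.4 ± 0.745 units, with no overlap between the 3 genes. The log2 differences per kilobase were -1.12 ± 0.21 for Orai1 minus Orai2 and -2.32 ± 0.15 for Orai1 minus Orai3.

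**Figure D2:**
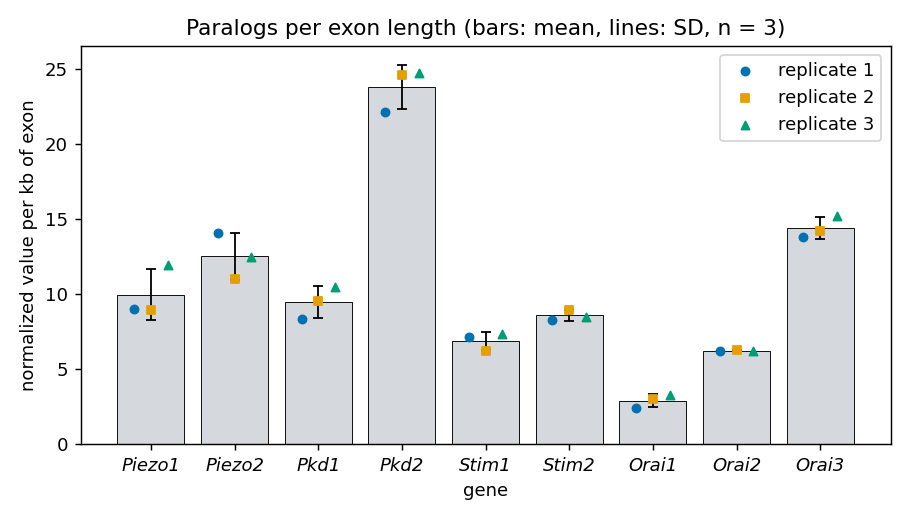
Values per kilobase of exon (y axis, deposited units per kb) of the Piezo, polycystin, Stim and Orai genes in the 3 DKO libraries; bars are means, lines are SDs (n = 3) and points are libraries. Piezo1 and Piezo2 overlap, Pkd2 lies above Pkd1 in every library, and Orai1 averages 2.90 units per kb, below Orai2 and Orai3.

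None of the 5 paralog differences changed sign between libraries. Exact permutation by sign flips (two-sided, n = 3) cannot go below p = 0.25, the value each pair had, both raw and with Benjamini-Hochberg adjustment over the 5 pairs, so no difference could pass a threshold of 0.05.

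Voltage-gated calcium channels admit calcium on depolarization, the L-type through Cacna1c and Cacna1d and the T-type through Cacna1g and Cacna1h. Cacna1c (chromosome 6, 118587240 to 119196890) was at 148, 146 and 134 units (143 ± 7.50) and Cacna1g (chromosome 11, 94408391 to 94474198) at 129, 136 and 158 units (141 ± 14.8). Cacna1d was at 42.0, 38.6 and 37.6 units and Cacna1h at 34.7, 27.9 and 28.1 units. The other pore genes stayed below 10 units, and Cacna1s, the pore of skeletal muscle, was under 1 unit, as were 7 of 10 skeletal muscle markers. Per kilobase of exon Cacna1g averaged 13.9 ± 1.46 units and Cacna1c 6.74 ± 0.354 units. The T-type gene thus stood above the L-type gene by this length, the union of all annotated exons, 10137 bases for Cacna1g and 21191 for Cacna1c.

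The auxiliary calcium channel subunits that traffic and tune the pores were expressed beside them. Cacna2d1 was at 56.6, 54.8 and 54.3 units (55.2 ± 1.22), Cacnb2 at 45.2, 42.7 and 41.9 units and Cacnb3 at 22.8, 30.6 and 31.6 units. Cacnb3 was lowest in replicate 1. Cacng7, whose protein is known from the trafficking of glutamate receptors in brain, was at 45.5, 38.4 and 35.2 units (39.7 ± 5.25) and averaged 16.3 units per kilobase of exon, with only Trpm7, Kcnj15, Pkd2 and Kcnk2 above it among the members. Cacna2d3 (21.9 ± 1.06 units) and Cacna2d2 (14.7 ± 2.38 units) were the other auxiliary members above 10.

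Potassium channels that are open at rest set the membrane potential, and inward rectifiers and tandem-pore channels are the main ones. Kcnj15 (chromosome 16, 95257558 to 95300260), an inward rectifier, was at 159, 214 and 191 units (188 ± 27.6), lowest in replicate 1 and highest in replicate 2. The summed dental epithelium, osteoclast, erythroid (26.3, 38.6 and 36.5 units) and skeletal muscle (4.02, 9.12 and 6.89 units) markers had the same order. Kcnj2, the classical strong inward rectifier of muscle and developing bone, was at 38.8, 45.2 and 48.9 units. Kcnj8, the pore of the vascular ATP-sensitive channel, was at 12.3, 11.4 and 11.5 units, and Abcc9, its partner subunit, at 54.4, 58.2 and 64.6 units, a gene picked with its values in view. The remaining 8 inward rectifier genes lay below 10 units, led by Kcnj10, a glial channel, at 2.51, 5.74 and 4.31 units.

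Of the tandem-pore genes, Kcnk2 (chromosome 1, 189207930 to 189402273), a stretch-sensitive leak channel, was at 85.3, 105 and 123 units (104 ± 18.7), lowest in replicate 1 and highest in replicate 3. Exons of A430027H14Rik, listed at 0.612, 0.467 and 0.815 units, lie opposite 12.2% of its exon bases. Kcnk6 was at 17.7, 18.05 and 17.1 units. The 6 other tandem-pore genes lay below 10 units, with Kcnk3 at 3.35, 4.26 and 4.22 units and Kcnk1 at 3.15, 4.45 and 3.54 units. Per kilobase of exon Kcnj15 averaged 29.8 ± 4.37, Pkd2 23.8 ± 1.46 and Kcnk2 21.1 ± 3.77 units, the members next to Trpm7. The ranges of Pkd2 and Kcnk2 overlapped, from 22.1 to 24.7 and from 17.2 to 24.8 units per kilobase, and those of Kcnj15 and Pkd2 did not.

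Potassium channels gated by intracellular calcium or sodium were few. Kcnt2, a sodium-activated channel, was steady at 31.9, 31.04 and 30.1 units. Kcnn3, a small-conductance calcium-activated channel, was at 33.2, 15.4 and 17.7 units (22.1 ± 9.69). Kcnma1, the large-conductance channel of smooth muscle and many other cells, was at 8.33, 4.45 and 5.47 units, and Kcnn2 at 3.73, 3.19 and 4.05 units. Of the auxiliary genes of the large-conductance channel, Kcnmb4 was at 2.01, 2.69 and 2.17 units, Kcnmb2 at 0.32, 1.26 and 0.652 units and Kcnmb1 at 0.35, 0.467 and 0.163 units.

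Of the 28 voltage-gated potassium pore genes, 4 had a mean of at least 10 units. Kcnh1 was at 27.7, 22.7 and 28.5 units and Kcnd3, a pore of fast transient currents, at 26.01, 18.4 and 19.2 units. Kcnf1 encodes an electrically silent subunit that assembles with other voltage-gated pore subunits, and is described below. Of the other 24 genes, 14 had means from 1 to under 10 units and 10 were under 1 unit. The cytoplasmic beta subunit gene Kcnab2 was at 5.18, 6.18 and 7.52 units. The genes of the calcium-binding Kv channel interacting proteins were at 3.85, 5.11 and 1.56 units for Kcnip2, 4.05, 3.19 and 2.77 units for Kcnip4 and 3.58, 2.94 and 2.40 units for Kcnip3. Kcne2 stood at the smallest value of the column in every library, and whether that value marks any expression was not settled.

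HCN channels carry pacemaker currents. Hcn4, the main isoform of the cardiac pacemaker, was at 36.4, 44.8 and 41.5 units (40.9 ± 4.23), whereas Hcn2 was at 6.41, 5.47 and 7.97 units and Hcn3 at 2.83, 2.23 and 2.19 units. Hcn4 was alone in its family above 10 units.

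Voltage-gated sodium channels start action potentials. Scn1a was at 23.5, 10.3 and 15.5 units (16.4 ± 6.66) and Scn8a at 12.6, 9.78 and 8.85 units, and both are known as channels of central neurons. Of the channels of pain nerves, Scn9a was at 9.24, 3.37 and 6.62 units and Scn10a at 0.233, 0.467 and 0.701 units. Of the 5 sodium pore genes that lie on chromosome 2, Scn1a and Scn9a (66480080 to 66634962), which are next to each other among these genes, shared the order of libraries, highest in replicate 1 and lowest in replicate 2. Scn3a was at 9.43, 8.96 and 7.64 units and Scn2a at 7.64, 9.89 and 8.28 units, without that order. The remaining gene of the 5, on the other side of Scn9a, was at 4.63, 3.82 and 5.24 units. It was lowest in replicate 2 but highest in replicate 3. The 7 neuronal markers found came in sum to 31.7, 42.5 and 54.5 units. The auxiliary genes Scn2b (29.2, 26.9 and 27.1 units) and Scn3b (13.98, 22.7 and 9.08 units) reached a mean of 10 units, while Scn4b was at 2.74, 1.24 and 2.12 units.

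The CLC family holds plasma membrane chloride channels and the chloride-proton exchangers of endosomes and lysosomes. All 5 exchangers were expressed. Clcn4 was at 99.6, 119.6 and 122 units (114 ± 12.3), Clcn5 was at 35.4, 51.6 and 48.2 units (45.1 ± 8.57), and Clcn7, the exchanger of lysosomes and of the osteoclast ruffled border, at 37.3, 40.4 and 46.3 units. Clcn4, Clcn5 and Clcn7 were lowest in replicate 1. Clcn3 was at 32.2, 36.8 and 31.6 units and Clcn6 at 19.6, 18.2 and 17.9 units. The channel Clcn2 was at 14.5, 12.5 and 12.1 units. Osteoclast markers were present at 91.6, 113 and 110.4 units in sum, with 4 of 8 found at a mean of at least 10 units.

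**Figure D3:**
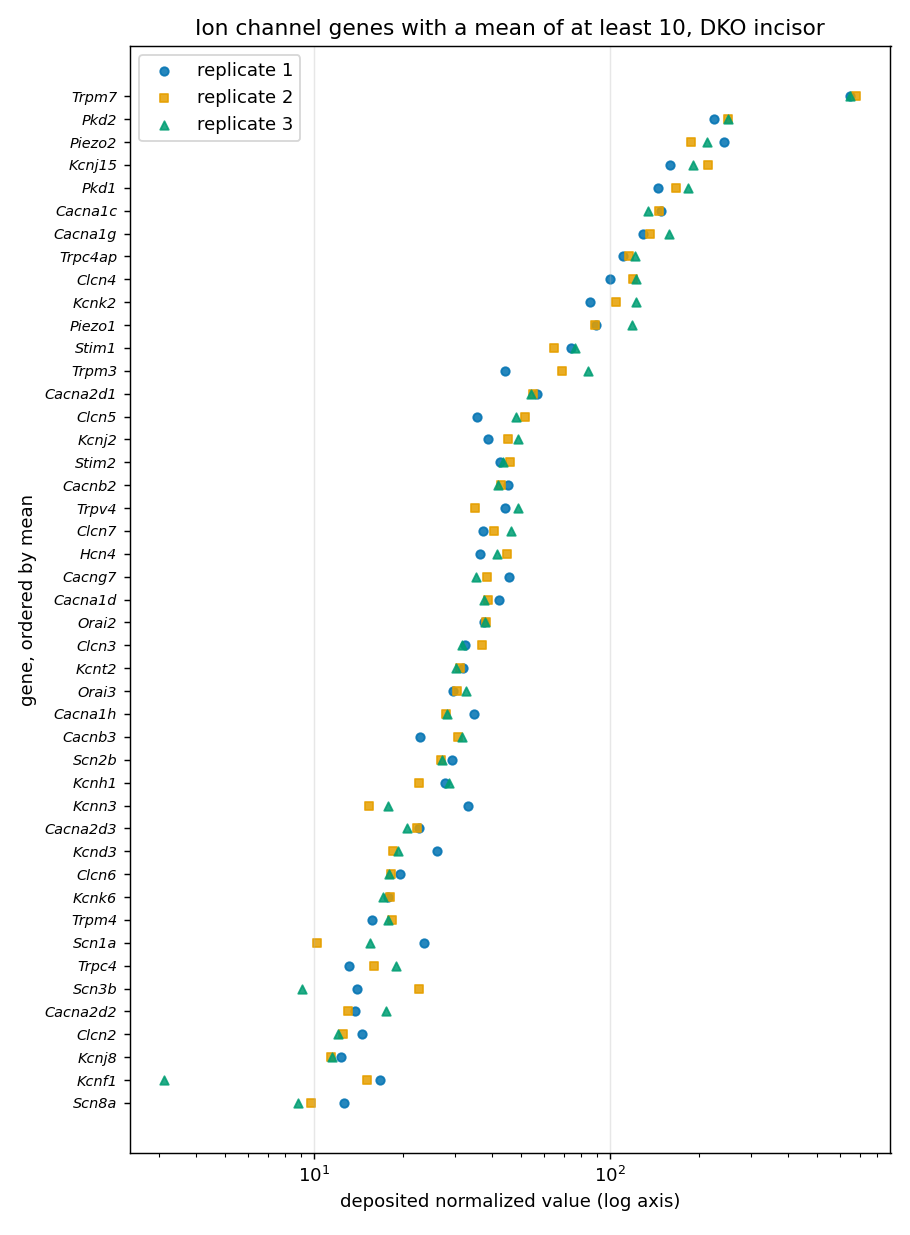
Deposited values (x axis, log scale, units) of the members with a mean of at least 10 units, all but 1 of the 46, in the 3 DKO libraries, ordered by mean; points are libraries. Trpm7 stands at 646 to 677 units, above every other member, and Kcnf1 in replicate 3 (3.12 units) lies far left of its other 2 libraries.

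Over all 3 libraries the median spread of the members was above that of all genes, and without replicate 1 it was not. The SD of log2(value + 1) over the 3 libraries had a median of 0.16 over the 46 members with a mean of at least 10 units, against 0.10 over all 10388 genes at that level, and without replicate 1 the medians were 0.075 and 0.079. Both sets had like levels, with median means of 38.6 units for the members and 41.1 units for all genes. An SD above 0.25 was found for 8 of the 46, or 17.4%, against 9.15% of all genes. Without replicate 1 it was 6 of 44 (13.6%, against 6.63% of all genes), without replicate 2 12 of 47 (25.5%, against 11.7%) and without replicate 3 10 of 46 (21.7%, against 9.98%). Only 2 of the 8, Scn3b and Scn1a, were still among those found without replicate 1, and Kcnf1 then fell below the level filter at a mean of 9.10 units. Without replicate 2 7 of the 8 were still among them, and without replicate 3 6 were. The 8 were Kcnf1 (SD of log2 1.18), Scn3b (0.62), Kcnn3 (0.57), Scn1a (0.56), Trpm3 (0.47), Clcn5 (0.28), Kcnd3 (0.26) and Kcnk2 (0.26). Just below the threshold of 0.25 lay Cacnb3 (0.24999) and Trpc4 (0.249). Of the 10 members with a mean of at least 100 units, Kcnk2 alone was above it.

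The variable members did not share an order of libraries. Trpm3, Clcn5 and Kcnk2 were lowest in replicate 1, while Kcnn3, Scn1a and Kcnd3 were highest in replicate 1 and lowest in replicate 2. The sums of the dental mesenchyme (7053, 8954 and 8971 units), dental epithelium, macrophage, glial (174, 197 and 208 units), neuronal, skeletal muscle, osteoclast and erythroid markers were also lowest in replicate 1, though 4 of 10 mesenchyme markers were highest there. The odontoblast markers were lowest in replicate 2 for 7 of 9 and highest in replicate 1 for 4 and in replicate 3 for 5, with their sum highest in replicate 3, and the interferon-stimulated genes were highest in replicate 1. The part of these lists in the spread was not tested. Scn3b was highest in replicate 2 and lowest in replicate 3. Among the 46, the library with the highest value was replicate 1 for 18 members, replicate 2 for 10 and replicate 3 for 18 (39.1%, 21.7% and 39.1%), against 31.2%, 34.2% and 34.6% of all genes, and the lowest value fell in them for 19, 13 and 14 members, against 38.1%, 27.8% and 34.2% of all genes.

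Kcnf1 (chromosome 12, 17172100 to 17176888) was low in a single library. It stood at 16.7, 15.1 and 3.12 units, 4.83-fold lower in replicate 3 than in the nearer of the other libraries, and was the only one of the 46 members (2.17%) with a library at least 2-fold below both others, against 0.568% of all genes. None of the 46 had a library at least 2-fold above both others, against 0.76% of all genes at that level. Shh, the ligand made by dental epithelium, followed the same pattern at 34.3, 33.1 and 0.885 units, and the epithelial marker Epcam (28.0, 34.2 and 14.6 units) was also lowest in replicate 3. Of the 13 epithelial markers 4 were lowest there. Others were not, among them Enam at 140.4, 241 and 246 units and Mmp20 at 79.6, 19.1 and 91.4 units. Of the 94 members with a mean under 10 units, 14 had a library at least 2-fold below both others. The same share over all genes at that level is not given here. Among these 14, Cacna1i (3.12, 2.97 and 0.652 units), Trpv6 and Kcnip2 (both given above) were lowest in replicate 3 as well. In others of the 14 another library was lowest, among them replicate 2 for Trpm6 and replicate 1 for Kcnmb2 and Scn10a. Both sets of genes were picked with their values in view, and their part in the Kcnf1 value was not tested.

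**Figure D4:**
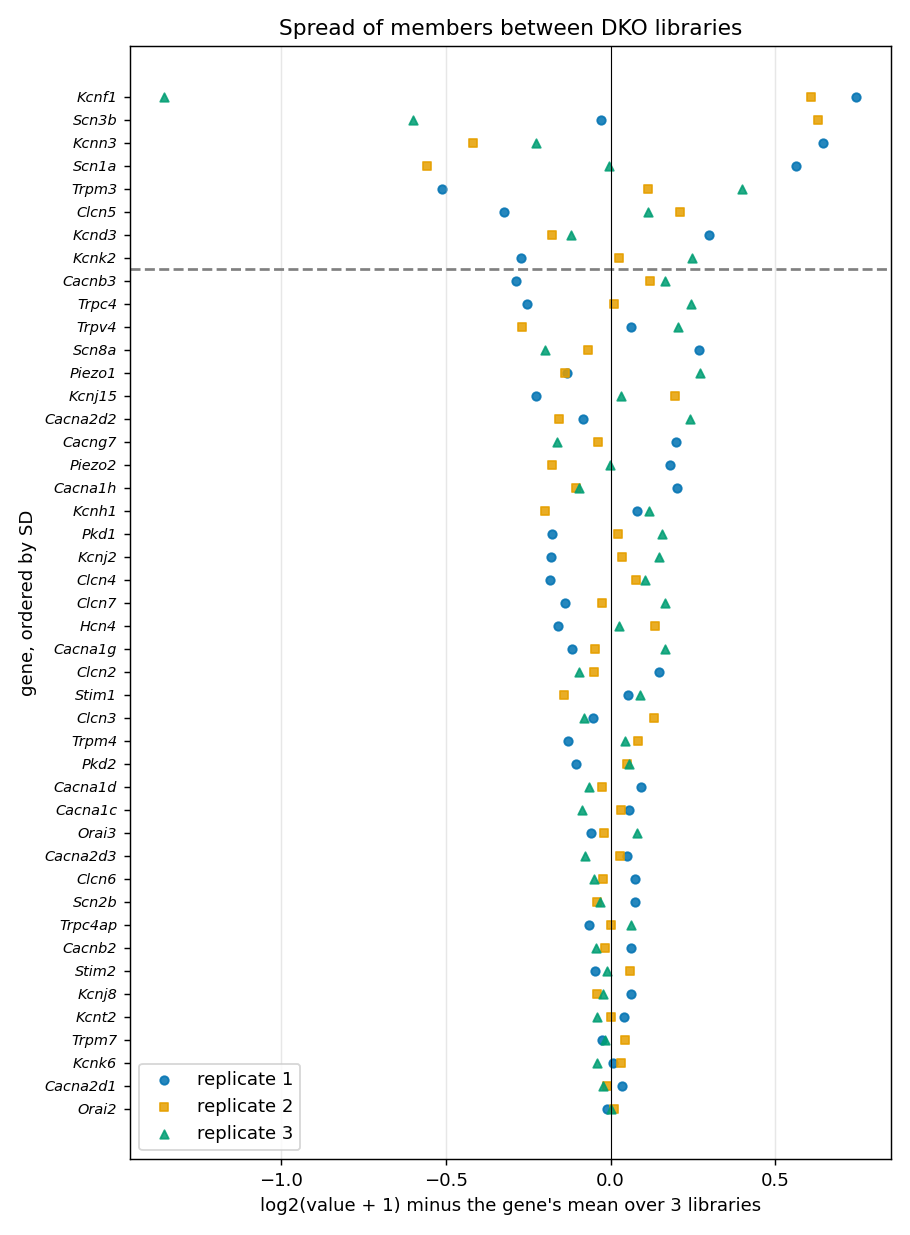
Deviation of log2(value + 1) from the gene's own mean (x axis, log2 units) for the members with a mean of at least 10 units, all but 1 of the 46, ordered by SD; points are DKO libraries and the 8 genes above the dashed line have an SD above 0.25. Kcnf1 in replicate 3 lies farthest from 0, while Orai2, Cacna2d1 and Kcnk6 at the bottom keep their 3 points together.

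Among the 46, the smallest coefficients of variation were those of Orai2 (0.838%), Cacna2d1 (2.21%), Trpm7 (2.64%), Kcnk6 (2.68%) and Kcnt2 (2.99%), and the median over the 46 was 10.9%, against 7.20% for all genes at that level. If the smallest value of a column stands for 1 read, counting error alone is 5.40%, 5.24% and 4.83% at a value of 10 units.

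Channels outside the member families, taken from a list of 89 genes, were set beside them. Of the 82 found, 40 had a mean of at least 10 units and 27 a mean under 1 unit. The gap junction gene Gja1 stood at 1232, 1559.6 and 1461 units, above Trpm7 also per kilobase of exon (138 units). Clic4 was at 231, 232 and 252 units, the mitochondrial outer membrane channel gene Vdac1 at 176, 193 and 188 units and the water channel gene Aqp1 at 133, 128 and 138 units. Gja1 was lowest in replicate 1, and the other 3 varied little between libraries.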

How the data were processed

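RNA was measured by bulk sequencing in 3 DKO libraries. The authors' deposited table gives a normalized signal per gene, called normalized counts in its name. Its 75th percentile was 44.7 in each column, and its totals were 986401, 958773 and 966163 units, which fits upper-quartile scaling of read counts by the authors, without division by gene length. Reads were aligned with TopHat2 2.0.8 to mm10, per the submitters' processing notes. How reads were counted, with which annotation, strand setting and filters, is not given in the sources used here. Columns were matched to libraries by the library number. No column of per-sample values was left unused (0).

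Below 200 times a column's smallest value, 82.0%, 81.9% and 81.0% of values came within 0.1 of whole multiples of that value. That was too few for whole reads to be recovered for every gene, so no count model was used. Among the members 97.6%, 97.6% and 96.0% did. No listed value was 0. What the smallest value stands for was not settled, so read depth is unknown.

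Exon lengths are the union of GENCODE M21 exons, matched by symbol, chromosome and position for 140 of 140 members, 136 of which have the same start and end there. The union covers every annotated transcript of a gene and can be longer than the transcripts made in the tissue. Which transcripts were made is not known here, so every order of genes per kilobase rests on this choice of length. Values were divided by exon kilobases in the paralog pairs and wherever the text says per kilobase. Ranks and percentiles among all genes use undivided values. Spread is the SD of log2(value + 1) at a mean of at least 10 units, with a threshold of 0.25. The 5 paralog pairs had an exact permutation test (sign flips within libraries, two-sided). Promoters are RefSeq's (GRCm38.p6), found for 109 of 140 members. Python 3.11.15, pandas 2.3.3, numpy 2.4.6 and matplotlib 3.10.9 were used.

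The members, lists, thresholds and tests were chosen with earlier results of these data known. Every member with a mean of at least 10 could be named. The 4 highest of each family and those with an SD above 0.25 are given per library, the Piezo, Orai, Stim, polycystin and CLC genes and known tooth and pain channels are named at any level, and of low members the highest of a family. Other names were chosen after their values were seen. Alternatives changed the scaling, the level and spread filters, the pseudocount, the length division and the libraries used. Some genes are counted but not reported here by name, 1 of them left out of the plots of single genes.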

Additional observations from a re-analysis of the deposited data

How the results depend on the processing

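No paired analysis was possible because the labels give 1 group only. The 46 members with a mean of at least 10 units became 108 at a mean of at least 1, 10 at a mean of at least 100 and 11 when values were divided by exon kilobases, and numbered 44 to 47 with a library left out. The members' share of the library total, 0.359%, was 0.399% with ribosomal RNA and mitochondrial genes removed and 0.353% to 0.367% with a library left out. The count of 8 variable members (SD above 0.25) became 5 with a pseudocount of 10, 40 with no filter on low values and 1 at a mean of at least 100, and were 6 to 12 with a library left out. The median SD of 0.16 was 0.075 to 0.14 with a library left out, lowest without replicate 1. With no filter, 49, 46 and 45 members were highest in replicates 1, 2 and 3. The filters change how many members are admitted; the cause of the changes under the pseudocount and without replicate 1 was not tested. The difference of Stim1 minus Stim2 reversed to 0.70 when values were not divided by exon length, because Stim1 has the longer union of annotated exons. The other 4 paralog differences kept their direction, and all 5 did with a library left out. Rescaling to equal totals moved the mean of none of the 46 members by more than 1 SD. The totals were alike beforehand (986401, 958773 and 966163 units), so these means could hardly move, and the rescaling is no check of them. Read depth is unknown, so counting error could not be separated from other spread in members with low values.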
